A study of Nasturtium officinale with 24 samples.

Results

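Stems of watercress (Nasturtium officinale) that had been completely under water for 2 days were compared with stems of plants kept in air for the same 2 days, by RNA sequencing. The comparison was chosen by the sample titles alone and holds 6 of the 24 libraries of the series, 3 from stems under water and 3 from stems in air. The plants were about 3 weeks old and had 5 to 6 leaves, and each library came from the pooled stems of 5 plants. The labels give the species but no strain or accession line, and all plants, under water or in air, stood in like tubs with 8 h of light a day. Stems collected after 1 day and petioles (leaf stalks) collected after 2 days, each again with 3 libraries under water and 3 in air, serve as points of comparison. All contigs passing a filter on low counts entered the test, 53919 of the 80741 assembled transcripts (contigs) in the deposited tables.

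As background, gases move far more slowly in water than in air, so a submerged shoot gathers the gaseous hormone ethylene and may run short of oxygen and of carbon dioxide. In many flood-adapted plants ethylene lowers abscisic acid and raises the action of gibberellin, and stems or petioles then lengthen towards the surface, while other plants stop growing and save carbohydrate. Shortage of oxygen is known to induce the genes of fermentation and sugar breakdown. Watercress is a semi-aquatic relative of Arabidopsis, and the series asks about the lengthening of its stem under water. The files do not pair the contig identifiers with gene names. No contig below is therefore assigned to any of these pathways, and the stem and petiole labels could not be checked against marker genes. Since 1 gene can be split over several contigs, the counts below are of contigs and not of genes.

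The 6 stem libraries held 18507555 to 43975724 estimated read counts. In a principal component analysis of log2 CPM (counts scaled to library size), the leading component held 46.4% of the variance among these 6 libraries, and on it the stems under water lay between -135.4 and -105.9 and the stems in air between 103.4 and 138.3. Spearman correlations of log2 CPM were 0.952 to 0.961 between libraries under water, 0.95 to 0.966 between libraries in air and 0.894 to 0.918 between a library under water and one in air. The replicates were about equally tight in the groups, where the SD of a contig's log2 CPM had a median of 0.27 under water and 0.265 in air. The libraries in air differed more in how far a few contigs filled them. The 10 most abundant contigs took 14.2%, 13.3% and 14.5% of all TPM (a level adjusted for contig length and scaled to a fixed total per library) under water, and 13.1%, 9.68% and 20.5% in air. Air replicate 3, at 20.5%, thus stood apart. The 10 contigs that led there took 14%, 13% and 14% of TPM under water and 12.9% and 9.32% in the other air libraries, and 0 of the 10 passed the test of submergence.

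After 2 days under water 5584 contigs were higher in stems (10.4% of the 53919 tested) and 5684 were lower (10.5%), by edgeR's quasi-likelihood test with a Benjamini-Hochberg adjusted p under 0.05. Most changes were modest. The median log2 change was 1.09 among the raised contigs, a 2.13-fold rise, and -1.02 among the lowered contigs, a 2.03-fold fall, against -0.01 over all contigs tested. A rise of at least 2-fold was fitted for 3097 of the raised contigs, and a fall of at least 2-fold for 2931 of the lowered ones. Changes of at least 16-fold were about as frequent in each direction, with 270 raised and 273 lowered contigs. Of these, 92 raised and 132 lowered contigs changed over 64-fold, where the median on the lower side was at or near 0 TPM.

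The groups rarely overlapped among the called contigs, but the calls compare the same 6 libraries. This separation is thus largely set by the call and is a description. All 3 libraries under water lay above all 3 in air for 5499 of the 5584 raised contigs (98.5%), and below them for 5617 of the 5684 lowered contigs (98.8%). Over all contigs tested the libraries under water lay wholly above those in air for 20.2% and wholly below them for 22.7%. Tested against a change of 2-fold rather than against no change, 889 contigs were higher and 744 lower. The split between rises and falls moved with the scaling of the libraries. With library totals alone in place of TMM factors (trimmed mean of M values, which offset a few dominant contigs), 6430 contigs were higher and 4134 lower, which is 60.9% higher against 49.6%. The fit that left out replicate 1 of the stems under water called 4498 rises and 3769 falls.

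**Figure D1:**
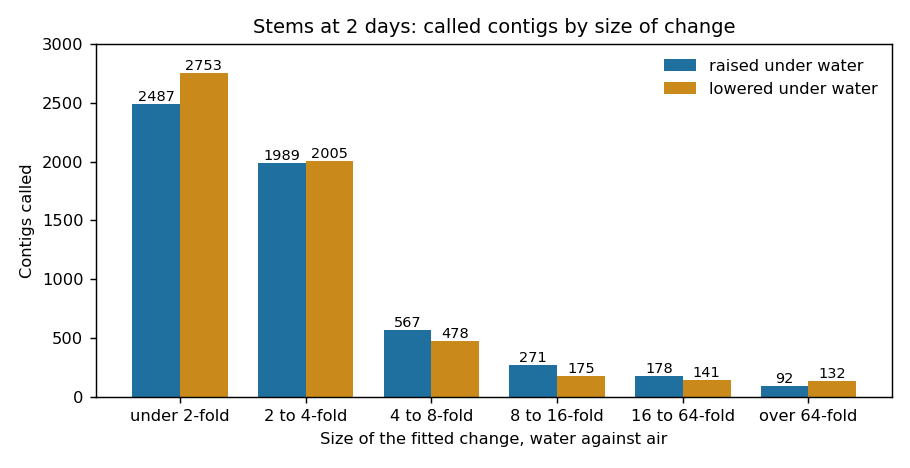
Number of called contigs in stems at 2 days (vertical axis) by the size of the fitted change, water against air (horizontal axis), with raised contigs in blue and lowered contigs in ochre. Changes under 2-fold make the largest class in each direction, with 2487 raised and 2753 lowered contigs.

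Among the called contigs those with the largest changes were scarce ones. The test sets part of this order, since small changes of scarce contigs were not called. Under a mean log2 CPM of -1 the smallest called log2 change was 1.16, against 0.25 at 8 and above. Raised contigs that changed less than 2-fold had a median of 14.5 TPM under water and 8.68 TPM in air. Those raised 8 to 16-fold, 271 contigs, had medians of 7.09 TPM under water and 0.62 TPM in air. Among the 92 contigs raised over 64-fold the median was 1.27 TPM under water and 0 TPM in air, so their fitted folds depend on the prior count and are no measure of size. Lowered contigs mirrored this order. Those lowered less than 2-fold had medians of 12.9 TPM under water and 19 TPM in air. The 175 lowered 8 to 16-fold had 0.835 TPM under water and 9.28 TPM in air. The 132 lowered over 64-fold had medians of 3.73e-09 TPM under water and 3.62 TPM in air. Their fitted folds are no measure of size either.

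Some contigs were at or near the counting limit in 1 treatment and above it in the other. Among the contigs tested, 233 had more than 3 counts in every library under water and at most 3 counts in every library in air, and the reverse held for 208 contigs. With the limit set to 0 counts the sets were smaller, at 100 and 108 contigs. The same 6 libraries chose these contigs, so the sets are a description and have no test here. A count of 3 was worth 0.08 to 0.11 CPM in the libraries under water and 0.0714 to 0.147 CPM in those in air. The limit of 3 counts is a chosen cut-off, and contigs at or below it may still hold reads. The levels on the higher side were low as well, with a median of 1.05 TPM and a highest value of 64.4 TPM for the contigs above the limit under water, and 1.41 and 70.4 TPM for those above it in air. In stems at 1 day 83 of the 233 were called higher, where 9.99% of all contigs tested were, and 77 of the 208 were called lower, where 9.09% were. In petioles at 2 days 125 of the 233 were called higher, where 16.3% of all contigs tested were, and 82 of the 208 were called lower, where 17.2% were. A contig at or below the limit on 1 side passed the low-count filter only through other libraries, which may be those at 1 day or of petioles. The shares over all contigs are therefore no fair reference, and these numbers are a description.

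The changes moved a sizeable part of the transcript pool. The raised contigs together held 20.1%, 20.3% and 19.7% of all TPM in the 3 libraries under water, against 8.63%, 8.97% and 7.8% in air. The lowered contigs held 13%, 13.4% and 13.4% under water, against 25.3%, 27.1% and 22.6% in air. Since the same libraries chose these contigs, the shares describe the size of the change and no test was made of them. The mean gain of the raised contigs was 11.6 percentage points of TPM and the mean loss of the lowered ones -11.7. In bulk tissue, fewer cells of a type and less RNA per cell cannot be told apart.

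The gain and the loss were spread over many contigs. The 100 contigs that gained most made up 38.9% of the net gain, and 220 contigs made up 50% of it. The loss was spread wider, with 29.5% in the 100 contigs that lost most and 50% in 321 contigs. The libraries at 1 day and those of petioles were not part of the comparison that chose the contigs. They did enter the filter and the estimate of spread that all groups share, so they are not fully independent of the choice. In stems at 1 day the contigs raised at 2 days held 19.7%, 17.4% and 19.7% of TPM under water, against 9.45%, 7.93% and 9.25% in air. In petioles at 2 days they held 20%, 21.3% and 21.7% under water, against 7.91%, 7.6% and 8.82% in air. The contigs lowered in stems at 2 days took 13.2%, 13.6% and 14.2% in stems under water at 1 day, against 26.2%, 24.4% and 24.5% in air. In petioles at 2 days they took 10.8%, 9.42% and 11.5% under water, against 21.9%, 19% and 23.6% in air. In each of these sets the libraries under water and in air did not overlap.

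**Figure D2:**
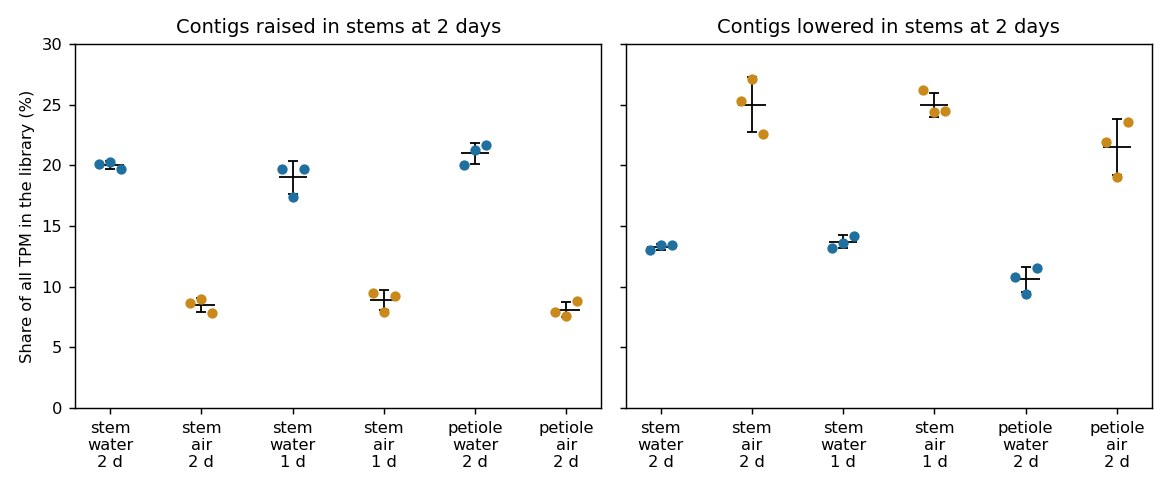
Share of all TPM in each library (vertical axis, %) held by the contigs raised (left) and lowered (right) in stems at 2 days, in 6 groups of 3 libraries (horizontal axis). Points are libraries, blue under water and ochre in air, and bars are the mean ± SD. The stem libraries at 2 days, whose comparison chose the contigs, and the 4 other groups show the same order, higher under water at left and lower at right.

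The share of contigs called grew with abundance. Among the 9561 scarcest contigs, whose log2 CPM averaged under -1, 6.64% were called, against 44.8% of the 306 contigs at 8 and above. The smallest change that was called was a log2 value of 1.16 in the lowest class and 0.25 in the highest. In the highest class 48 contigs rose and 89 fell. Falls outnumbered rises there under other scalings too, with 60 and 71 for library totals alone and 50 and 80 for RLE size factors (the median-ratio scaling). At a mean log2 CPM of 5 to 8 the order depended on scaling, with 990 rises and 1195 falls under TMM but 1211 and 896 with library totals alone.

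Contig length went with the direction of change. Of the 9231 contigs over 2000 bases 12.8% rose and 8.8% fell. Of the 13347 contigs over 500 and up to 1000 bases long 9.82% rose and 12.2% fell. Long contigs were also more abundant, with a median log2 CPM of 3.37 over 2000 bases and 1.57 over 500 and up to 1000 bases. Among contigs of like abundance, a mean log2 CPM of 3 to 5, the falls still differed by length, at 10.6% of those over 2000 bases and 20.8% of those over 500 and up to 1000 bases, while the rises stood at 16.1% and 14.2%. Over 2000 bases, rises outnumbered falls under each scaling, with 1183 rises and 812 falls under TMM, 1258 and 781 under RLE and 1364 and 535 with library totals alone. Over 500 and up to 1000 bases the excess of falls held under RLE, with 1363 rises and 1533 falls, but with library totals alone there were 1502 rises and 1182 falls. The part of fragment size or RNA quality in this was not tested. The fragment length implied by the effective lengths was 177, 186 and 185 bases under water and 183, 185 and 168 bases in air.

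**Figure D3:**
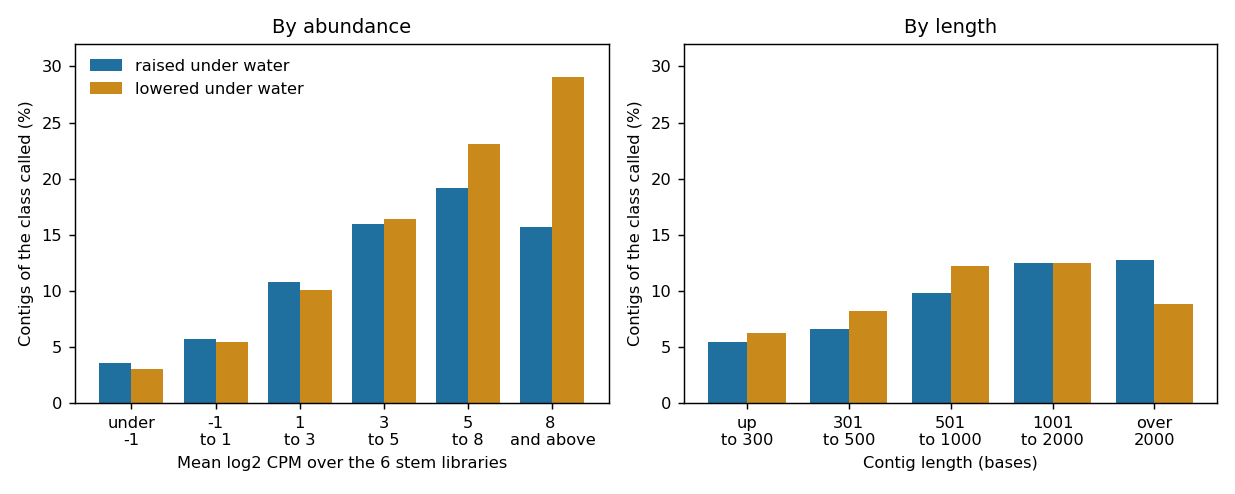
Percentage of contigs in each class that were raised (blue) or lowered (ochre) in stems under water at 2 days (vertical axes), by mean log2 CPM over the 6 stem libraries (left) and by contig length in bases (right). The called share grows with abundance, and lowered contigs are fewer than raised ones over 2000 bases, at 8.8% against 12.8%.

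The deposited estimates share out reads that match more than 1 contig, which leaves the values of near-identical copies uncertain. A cleaner set is that of the 13023 contigs whose estimated counts were whole numbers (within 1e-06) in all 24 libraries. Of these 8.21% rose and 11.7% fell, against 11% and 10.2% of the other 40896 contigs. The whole-count contigs were shorter, with a median of 408 bases against 1250. When they were scaled and tested among themselves 1597 rose and 1446 fell, so falls no longer outnumbered rises among them.

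Contigs with consecutive accession numbers tended to change together. Over 41799 pairs of tested contigs numbered next to each other, the log2 changes had a Pearson correlation of 0.223, and it was 0.038 at a distance of 5 numbers and 0.002 at 50. When a contig was raised the next one was raised in 27.2% of pairs, and when a contig was lowered the next one was lowered in 29%, against the 10.4% and 10.5% of all contigs tested. At a distance of 50 these shares were 11.1% and 11.3%. In the 4461 neighbouring pairs in which both contigs had whole counts the correlation was 0.229. Neighbours still went opposite ways in 528 pairs, beside 1207 in which both rose and 1283 in which both fell. Pairs share libraries and may share a gene, so the correlation is a description and has no test.

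The contigs named for their TPM were chosen among called ones that changed at least 2-fold with no overlap between these stem libraries. Their lack of overlap is thus no finding. Of such raised contigs, GEMC01018687.1 (683 bases) and GEMC01048450.1 (234 bases) added most to the transcript pool. GEMC01018687.1 stood at 3310, 3140 and 3830 TPM in stems under water, against 1130, 1150 and 1030 TPM in air. The libraries under water were close to each other and far above those in air. Its log2 change was 1.52 ± 0.20 (SE, n = 3 each; edgeR, adjusted p = 2.2e-05). It was also higher under water in stems at 1 day (log2 change 2.11 ± 0.21, edgeR adjusted p = 3.8e-07) and in petioles at 2 days (1.47 ± 0.20, edgeR adjusted p = 1.6e-05). In petioles its level was lower in each treatment, at 1270 ± 64.7 TPM under water and 407 ± 67.7 TPM in air (SD, n = 3).

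GEMC01048450.1 stood at 1780, 2260 and 2470 TPM in stems under water, against 723, 1190 and 549 TPM in air. At 234 bases it was little longer than the implied fragments of 168 to 186 bases, so its TPM and its rank depend strongly on the effective length. Its estimated counts were 4720 to 8812 under water and 2226 to 2708 in air. The groups did not overlap, as the rule of choice required, but the libraries in air differed among themselves by over 2-fold. The log2 change was 1.34 ± 0.43 (SE, n = 3 each; edgeR, adjusted p = 0.033), and the call was lost in 4 of 14 other fits, with adjusted p between 0.0056 and 0.12 over the 14. Those 4 fits left out replicate 1 or 3 in air or replicate 2 or 3 under water, with log2 changes of 1.27, 1.20, 1.37 and 1.26. At 1 day the change in stems missed the threshold (log2 change 1.02 ± 0.43, edgeR adjusted p = 0.11), with libraries at 1910, 806 and 974 TPM under water and 633, 414 and 941 TPM in air.

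Under the same rule of choice the lowered contigs that took most from the pool were GEMC01043073.1 (1494 bases) and GEMC01038986.1 (330 bases). GEMC01043073.1 stood at 1600, 1570 and 1400 TPM in stems under water, against 3470, 3340 and 2770 TPM in air. Each library under water lay below each one in air, as the rule of choice required. The log2 change was -1.17 ± 0.15 (SE, n = 3 each, edgeR adjusted p = 1.9e-05). GEMC01038986.1 stood at 438, 362 and 332 TPM under water, against 1490, 1160 and 1710 TPM in air. Its log2 change of -2.09 ± 0.24 (SE; edgeR, adjusted p = 3.6e-06) was the steepest of these 4 contigs. In petioles at 2 days GEMC01043073.1 changed by -1.03 ± 0.15 and GEMC01038986.1 by -2.33 ± 0.24 on the log2 scale (SE; edgeR, adjusted p = 3.5e-05 and 5.5e-07). The estimated counts of all 4 contigs were not whole in every library, so part of their reads was shared with other contigs.

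**Figure D4:**
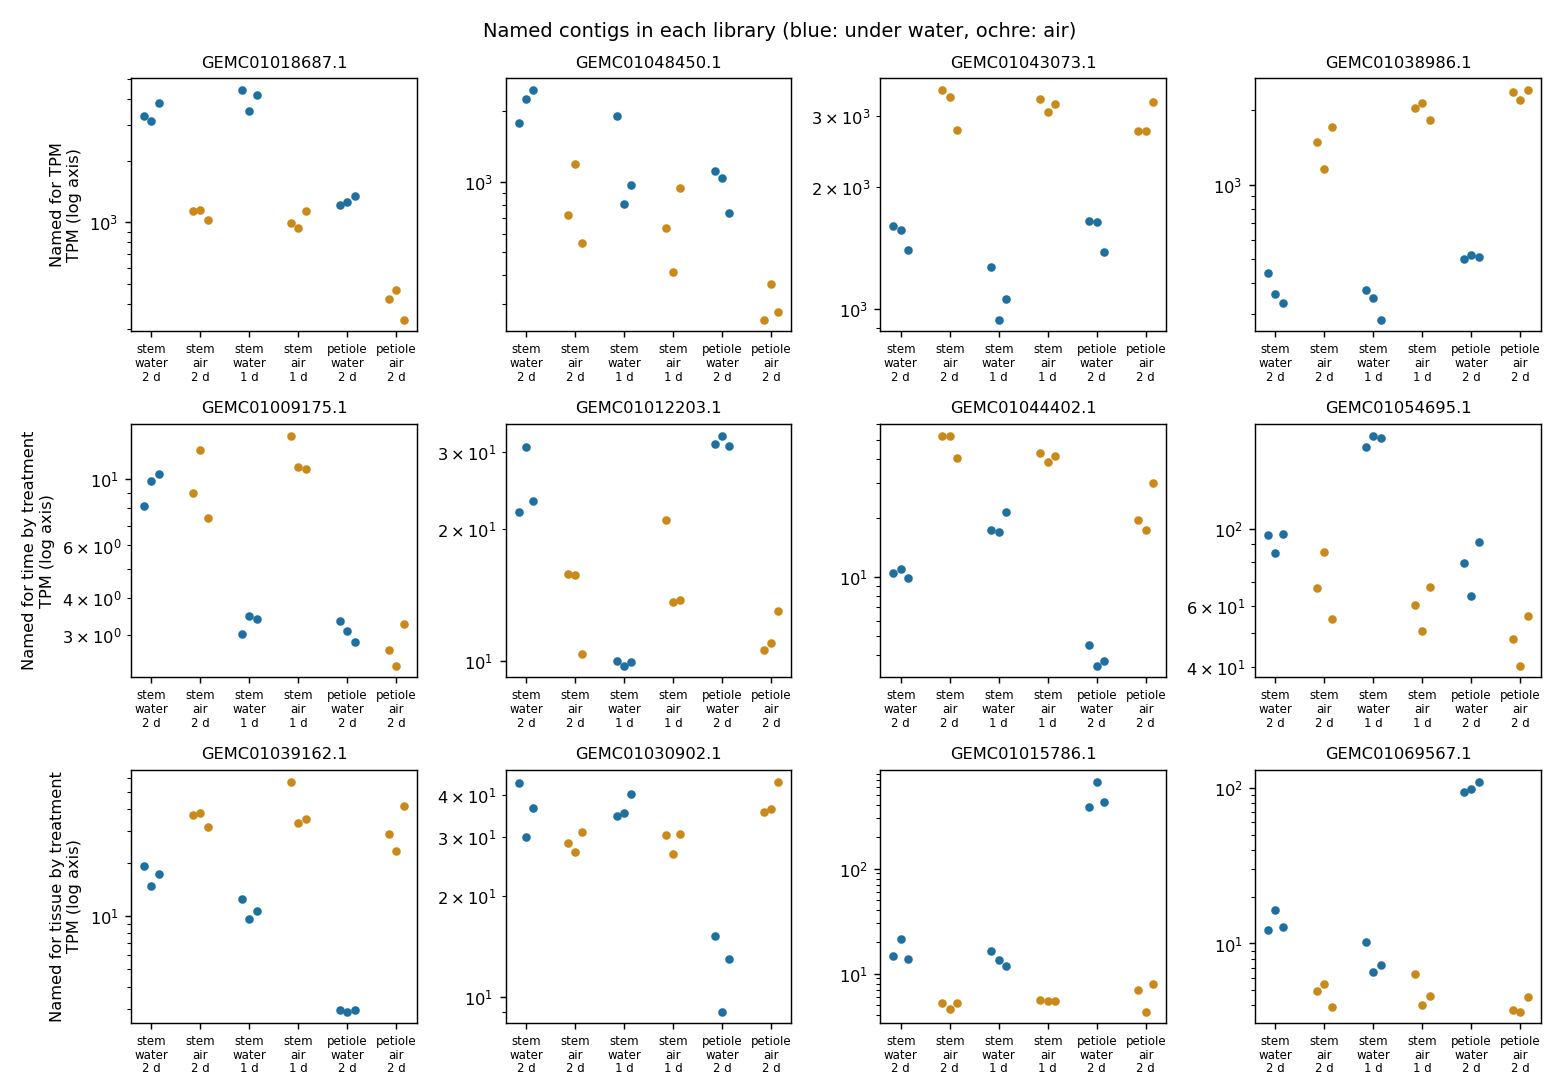
Level of the 12 named contigs in each library (vertical axes, TPM on a log scale) in 6 groups of 3 libraries (horizontal axes), blue under water and ochre in air. The top row shows the contigs with the largest gain or loss of TPM, the middle row those named for the time by treatment interaction and the bottom row those named for the tissue by treatment interaction. In the top row the libraries under water and in air do not overlap in stems at 2 days, which was a condition of the choice.

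The comparison with the first day asks how far the stem's state at 2 days was already there at 1 day. The days share no library, so each has its own controls. Stems in air at 2 days differed from stems in air at 1 day in 0 contigs by edgeR, with 1288 contigs (2.39%) at an unadjusted p under 0.05. limma-voom also called 0, and DESeq2 called 40. So few calls between groups of 3 libraries do not show that the controls were equal. Of the 5584 contigs raised at 2 days, 3425 were also called higher at 1 day. They were 61.3% of the list at 2 days and 63.6% of the list at 1 day, where 9.99% of all contigs tested were raised. Of the 5684 lowered contigs 3036 were also lower at 1 day, 53.4% and 62% of the lists, where 9.09% of all contigs were lowered. Calls in opposite directions were few, with 14 among the contigs raised and 5 among those lowered at 2 days.

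The share already called at 1 day grew with the size of the change up to a point. It was 54.2% of the contigs raised under 2-fold, 66.4% of those raised 2 to 4-fold and 71.8% of those raised 4 to 8-fold. For lowered contigs it was 45% under 2-fold and 81.1% at 8 to 16-fold. The contigs raised over 64-fold, with a median of 0 TPM in air, shared fewer calls, at 46.7%. The median log2 change of the raised contigs was 1.09 at 2 days and 0.87 at 1 day, and that of the lowered contigs -1.02 and -0.73. Contigs picked by their value at 2 days must lean towards large values there. Picked by their call at 1 day, the raised contigs had medians of 0.86 at 2 days and 1.19 at 1 day, and the lowered contigs -0.82 and -1.11.

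**Figure D5:**
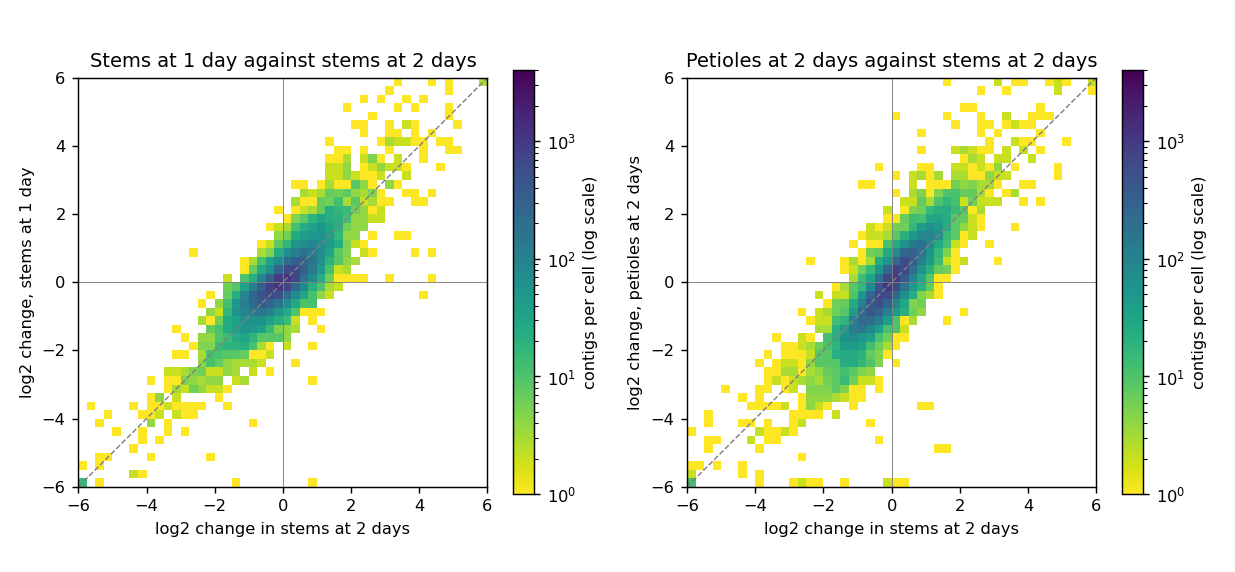
Fitted log2 change, water against air, in stems at 1 day (left, vertical axis) and in petioles at 2 days (right, vertical axis) against that in stems at 2 days (horizontal axes), for the 17898 contigs whose log2 CPM averaged 3 or more. Colour gives the number of contigs on a log scale, values beyond 6 are drawn at the edge, and the dashed line marks equal changes. Most contigs lie along the dashed line, with a Pearson correlation of 0.839 at left and 0.861 at right.

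Only 71 contigs passed the test of the difference itself, the time by treatment interaction in stems (0.132% of those tested). At an unadjusted p under 0.05 by the same edgeR test there were 5176 contigs. The few calls therefore do not show that the days were alike in the other contigs. Of the 71, the change was more positive at 2 days for 47 and more negative for 24. They were mainly contigs whose response had been stronger on the first day. Of the 47, 7 were called lower at 2 days and 39 at 1 day, while 17 were called higher at 2 days. Calls on the days were opposite in 9 of the 47, and the stem changed more in size at 2 days in 13. Of the 24, 7 were called higher at 2 days and 22 at 1 day, and 2 changed more in size at 2 days. When libraries were scaled by their totals alone 250 interactions were positive and 32 negative (88.7% positive, against 66.2% under TMM), which moved the median interaction of all contigs to 0.181 against -0.01. A fit to these 12 libraries alone gave 130 positive and 224 negative, and DESeq2 called 917 contigs. With 1 library left out the number lay between 8 and 104. It changed by more than 1.5 times for 10 of the 12 libraries, the exceptions being replicate 1 under water and replicate 3 in air, both at 1 day.

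GEMC01009175.1 (1259 bases) and GEMC01012203.1 (1456 bases) had the lowest p among the positive interactions. GEMC01009175.1 stood at 8.16, 9.87 and 10.4 TPM in stems under water at 2 days, against 8.98, 12.5 and 7.41 TPM in air, so these groups overlapped. At 1 day it stood at 3.02, 3.47 and 3.39 TPM under water, against 14, 11 and 10.8 TPM in air, far apart. The log2 difference between the days was 1.60 ± 0.22 (SE; edgeR, adjusted p = 0.009). GEMC01012203.1 changed sign. It was higher at 2 days, at 21.9, 30.8 and 23.2 TPM under water against 15.8, 15.7 and 10.4 TPM in air, and lower at 1 day, at 10, 9.76 and 9.93 TPM under water against 21, 13.6 and 13.8 TPM in air. Both changes were called (log2 0.77 ± 0.13 at 2 days and -0.54 ± 0.13 at 1 day, edgeR adjusted p = 0.00031 and 0.0062), and they differed by 1.30 ± 0.19 on the log2 scale (SE; edgeR, adjusted p = 0.009).

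Among the negative interactions GEMC01044402.1 (1611 bases) and GEMC01054695.1 (2128 bases) had the lowest p. GEMC01044402.1 was lowered on both days, to 10.5, 11 and 9.84 TPM under water at 2 days, against 52.5, 52.4 and 40.4 TPM in air. At 1 day it stood at 17.4, 17 and 21.4 TPM under water, against 42.9, 38.7 and 41.5 TPM in air. Its log2 change was -2.31 ± 0.12 at 2 days and -1.01 ± 0.12 at 1 day, a difference of -1.30 ± 0.17 (SE; edgeR, adjusted p = 0.0074). GEMC01054695.1 stood at 96, 85.1 and 96.5 TPM under water at 2 days, against 67.6, 85.6 and 55 TPM in air, with overlapping groups. At 1 day it stood at 172, 185 and 182 TPM under water, against 60.2, 50.9 and 68.1 TPM in air. The change at 2 days differed from that at 1 day by -1.40 ± 0.20 on the log2 scale (SE; edgeR, adjusted p = 0.009), and by -1.31 with an adjusted p of 0.054 without replicate 1 in air at 1 day. Over the 20 other fits its adjusted p lay between 2.2e-07 and 0.054.

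Petioles at 2 days shared most of the stem's changes. Of the contigs raised in stems 4564 were also raised in petioles, 81.7% of the stem list and 51.8% of the petiole list, where 16.3% of all contigs tested were raised. Of the contigs lowered in stems 4562 were lowered in petioles, 80.3% and 49.3% of the lists, where 17.2% of all contigs were lowered. The contigs raised in stems had a median log2 change of 1.09 in stems and 1.15 in petioles, and the lowered ones -1.02 in stems and -1.09 in petioles. Contigs picked by their call in petioles had medians of 0.71 in stems and 1.18 in petioles when raised, and -0.74 and -1.21 when lowered.

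The calls of the stem at 2 days can be sorted by whether stems at 1 day and petioles at 2 days shared them. Among raised contigs 3059 were called higher in all 3 comparisons, 1496 in stems and petioles at 2 days but with no call in stems at 1 day, and 360 in stems on both days but with no call in petioles. A set of 641 raised and 661 lowered contigs had a call in stems at 2 days alone. A missing call does not show that a contig was unchanged. Of the 641 raised contigs 0 passed the time by treatment and 4 the tissue by treatment test, and of the 661 lowered contigs 0 and 4 did, by edgeR at an adjusted p under 0.05. Over all contigs tested these interactions were called for 0.132% and 0.605%, so the numbers in both sets are near those shares. These raised contigs had median log2 changes of 1.08 in stems at 2 days, 0.33 in stems at 1 day and 0.4 in petioles, and the lowered ones -1.05, -0.41 and -0.38.

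The tissue by treatment interaction at 2 days was called for 326 contigs (0.605% of those tested), 146 positive and 180 negative, where positive means a more positive change in stems. In most of them the petiole changed and the stem changed less. Of the 146, 31 were called lower in stems and 134 in petioles, and the stem had the larger change in 16. Of the 180, 60 were called higher in stems and 159 in petioles, and the stem had the larger change in 27. Calls in opposite directions were made for 12 of the 146 and 15 of the 180. With 1 library left out the number lay between 128 and 340. It changed by more than 1.5 times for 10 of the 12 libraries, the exceptions being replicate 3 of the petioles under water and replicate 3 of those in air. DESeq2 called 1236 contigs, 55.5% of them positive against 44.8%, and limma-voom called 201. By edgeR 5933 contigs had an unadjusted p under 0.05, so the tissues cannot be called alike in the contigs without a call.

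GEMC01030902.1 (854 bases) and GEMC01039162.1 (1053 bases) had the lowest p among the positive interactions. GEMC01030902.1 stood at 43.6, 30 and 36.7 TPM in stems under water, against 28.9, 27.1 and 31.2 TPM in air. These groups overlapped, and the stem change missed the threshold (log2 0.22 ± 0.16, edgeR adjusted p = 0.39). In petioles it stood at 15.2, 9.05 and 13 TPM under water, against 35.6, 36.5 and 44 TPM in air, well apart. The log2 difference between the tissues was 2.00 ± 0.23 (SE; edgeR, adjusted p = 0.00033). GEMC01039162.1 fell in each tissue, to 19.2, 14.7 and 17.3 TPM in stems under water against 36.9, 38.2 and 31.9 TPM in air, and to 2.95, 2.89 and 2.94 TPM in petioles under water against 29, 23.2 and 41.4 TPM in air. Stems and petioles differed by 2.35 ± 0.27 on the log2 scale (SE; edgeR, adjusted p = 0.00031).

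The negative interactions of lowest p were those of GEMC01015786.1 (975 bases) and GEMC01069567.1 (718 bases), which rose in each tissue. GEMC01015786.1 stood at 14.7, 21.2 and 13.8 TPM in stems under water, against 5.22, 4.6 and 5.24 TPM in air. In petioles it stood at 387, 674 and 434 TPM under water, against 7.02, 4.34 and 7.93 TPM in air. The levels in air were thus alike in the tissues and those under water far apart, with a log2 difference of -4.59 ± 0.38 (SE; edgeR, adjusted p = 6.8e-06). GEMC01069567.1, whose counts were whole in all libraries, stood at 12.3, 16.4 and 12.7 TPM in stems under water, against 4.96, 5.46 and 3.93 TPM in air. In petioles it stood at 93.8, 98.4 and 110 TPM under water, against 3.76, 3.65 and 4.56 TPM in air, a difference of -3.09 ± 0.31 between the tissues on the log2 scale (SE; edgeR, adjusted p = 8.6e-05). Its rise in stems was called on both days, at a log2 change of 1.43 ± 0.22 at 2 days and 0.85 ± 0.22 at 1 day (SE; edgeR, adjusted p = 0.00011 and 0.0088), and the time by treatment interaction missed the threshold (edgeR, adjusted p = 0.59).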

How the data were processed

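Per the labels, messenger RNA was bound to magnetic beads, fragmented by heat and made into libraries by a protocol that does not keep strand (BrAD-seq), with 5 plants pooled per sample. Sense and antisense transcripts that overlap therefore cannot be told apart. The submitters' processing notes name kallisto, edgeR and limma. Their versions, the transcriptome's assembly and any filter on reads are not stated in the labels or headers. The deposited estimated counts are not normalised, and the deposited TPM values adjust for effective length, per the file headers.

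Estimated counts were rounded. edgeR 4.0.16 filtered contigs (filterByExpr by group, minimum count 10, minimum total 15), scaled libraries with TMM factors and fitted 8 group means to all 24 libraries (biological coefficient of variation 0.374). Contrasts were tested with glmQLFTest, two-sided, with Benjamini-Hochberg adjustment over 53919 contigs. Counts on tested contigs made up 99.917% or more of each library. SE values come from the F statistic. CPM was computed here. TPM entered no test. Counting limits cover counting error only. DESeq2 1.42.0 and limma 3.58.1 served as alternatives. Code was tested on simulated data. Same-numbered petiole libraries under water and in air at 2 days had deviations from their group means that correlated at 0.14, 0.23 and 0.17. Those of unlike number correlated at -0.2 to 0. The labels state no pairing, and the main fit, which gave the petiole values above, had no term for it. The fit with the replicate number as a block is an alternative. Replicates are separate pools of plants by the labels, which do not say whether these came from separate experiments, so p-values measure the spread between these samples.

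The contigs named have the largest gain or loss of mean TPM among those changed at least 2-fold without overlap (2 each way), or the lowest interaction p among those whose log2 CPM averaged 3 or more (2 each way). Comparison, rules and lists were chosen with earlier results of these data known. Gene lists and marker lists could not be used without gene names.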

Additional observations from a re-analysis of the deposited data

Results flagged for a closer look

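The 8 contigs named for an interaction stand out because the effect of submergence differed between days or between tissues by a test of the difference itself. In stems the log2 difference between 2 days and 1 day was 1.60 for GEMC01009175.1, 1.30 for GEMC01012203.1, -1.30 for GEMC01044402.1 and -1.40 for GEMC01054695.1. At 2 days the log2 difference between stems and petioles was 2.35 for GEMC01039162.1, 2.00 for GEMC01030902.1, -4.59 for GEMC01015786.1 and -3.09 for GEMC01069567.1. Each kept its direction in all 20 other fits, and the call was lost in 1 of them for GEMC01054695.1 and in 0 for the other 7. The contigs were chosen by their low p in these libraries, which the other fits largely reuse. This stability is thus no independent support. Among these 8, estimated counts were whole in all libraries for GEMC01009175.1 and GEMC01069567.1 alone. Part of the reads of the others was shared with other contigs. Groups of 3 libraries are too small for a test of single outlying libraries.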

How the results depend on the processing

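The numbers of raised and lowered contigs in stems at 2 days stayed within 1.5 times under RLE size factors, library totals alone, no filter or a stricter filter on low counts, DESeq2, limma-voom, a fit to the 6 libraries alone and the replicate number as a block. They were smaller against a 2-fold bound (889 raised, 744 lowered) and among contigs with whole counts alone (1597 raised, 1446 lowered), where fewer contigs were tested. Leaving out 1 library gave 4287 to 4835 raised and 3769 to 4402 lowered contigs, the lowest number lowered without replicate 1 under water. The time by treatment interaction was called for 282 contigs with library totals alone, 118 with the stricter filter (39549 contigs tested), 354 in the fit to the 12 libraries alone, 917 with DESeq2, 39 among contigs with whole counts and 8 to 104 without 1 library. The tissue by treatment interaction was called for 1236 contigs with DESeq2, 201 with limma-voom, 150 among contigs with whole counts and 128 to 340 without 1 library. The cause of these shifts was not tested. Of the contigs called in the main comparison, 11242 of 11268 were also called in the same direction by DESeq2 and 10871 by limma-voom. Fewer were shared with the fit to the 6 libraries alone (9979) and with library totals alone (9640). Without 1 of the 6 libraries 7979 to 8537 were shared.

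The labels do not say that a replicate number marks shared plants or days. For replicates 1 to 3 the deviations from the group means of same-numbered libraries correlated at -0.05, 0.08 and 0.12 between stems under water and in air at 2 days, at 0.1, 0.12 and -0.11 between those at 1 day, at 0.19, 0.03 and 0.19 between stems and petioles under water and at 0.11, -0.2 and -0.23 between stems and petioles in air. In the same order, libraries of unlike number correlated at -0.17 to 0.12, -0.31 to 0.26, -0.21 to 0.06 and -0.09 to 0.28. Between stems and petioles under water, replicates 1 and 3 (0.19 each) thus lay above those of unlike number. The main fit paired no stem libraries, neither with each other nor with petioles. In petioles at 2 days each same-numbered correlation lay above those of unlike number, but the main fit did not pair these libraries either. With the replicate block 8812 contigs were raised and 9198 lowered in petioles, against 8811 and 9252 without it. With the replicate block 5586 contigs were raised and 5759 lowered in stems at 2 days, and 89 and 324 passed the interactions of time and of tissue. By share of CPM the raised contigs held 22.8% under water and 10.7% in air, and the lowered contigs 14.4% under water. Low contigs were limited by depth: under a mean log2 CPM of -1 only log2 changes of 1.16 or more were called. Scaling by class, and DESeq2 and limma-voom for the controls in air, were chosen after the data were seen.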
